A study of Homo sapiens with 84 samples.

Results

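Adding EpEX, the extracellular domain of the epithelial cell adhesion molecule EpCAM, to Kyse30 cells that received high-dose EGF (EGFhigh) changed the levels of 550 of 15350 tested genes (3.58%) at 72 h. With each of the 6 libraries left out in turn, 131 of these genes were called every time. Without EGFhigh + EpEX replicate 2, 187 genes were called. The genes lower with EpEX included 4 of 19 tested genes of the cornified envelope, 4 of 17 keratins, 5 of 12 S100 genes and 3 of 9 genes of hemidesmosomes and laminin-332, and those higher included EGFR, FOS, FOSB, ID1 to ID4, CCN2, 9 of 43 S phase and 14 of 54 G2/M genes. Over all genes tested, 1.72% were lower and 1.86% higher. EGFR, FOS and ID3 each lost their call when some single libraries were left out. Without EGFhigh + EpEX replicate 2, only 2 S phase and 4 G2/M genes were higher. The comparison set the 3 libraries of Kyse30 cells treated with EGFhigh and EpEX for 72 h (replicates 1, 2 and 3) against the 3 libraries of cells treated with EGFhigh alone for the same time (replicates 1, 3 and 4), which together are 6 of the 84 libraries of the study. The comparison was chosen by treatment and time and not by the level of any gene, and 15350 genes that passed a filter on low counts were tested.

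The study treated squamous carcinoma cell lines with EGF and EpEX to ask how these proteins act on EGFR and on epithelial-mesenchymal transition (EMT), and measured mRNA by 3' RNA sequencing (QuantSeq), which reads the 3' end of each transcript. Kyse30 is a human line from an esophageal squamous cell carcinoma, and all Kyse30 groups are cultures of this line. Cells were starved of serum for 24 h and then left in serum-free medium, which all groups below share, as untreated cells, or with Fc, EpEX, EGFlow (1.8 nM EGF), EGFhigh (9 nM EGF) or EGFhigh + EpEX. EpEX was given as a fusion with the Fc part of an immunoglobulin. The labels of the EGFhigh + EpEX libraries name both agents without a dose. The EGFhigh libraries received no Fc, so the contributions of EpEX and of Fc in the comparison of EGFhigh + EpEX with EGFhigh cannot be told apart by that comparison alone. At 72 h there were 3 libraries each of untreated cells, Fc and EpEX and 4 of EGFlow. The labels do not say that replicates were separate cultures. The p-values measure only the spread between libraries within groups, estimated over all 43 Kyse30 libraries, those of 0 h and 6 h included.

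EGF binds EGFR, a receptor tyrosine kinase, and drives the RAS-ERK pathway, which induces immediate early genes such as FOS and EGR1 and, with sustained activity, can loosen epithelial cells and make them motile. EpCAM is a membrane glycoprotein of epithelial cells from which proteases release EpEX, and soluble EpEX is reported to bind EGFR. Squamous epithelium builds a cornified envelope from small proline-rich (SPRR) proteins as it differentiates, and anchors itself to the basement membrane through laminin-332 and the integrin of ITGA6 and ITGB4.

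Gene counts summed to between 5993131 and 9499780 in the EGFhigh libraries and between 4563103 and 6817840 in the EGFhigh + EpEX libraries, so a count of 3 corresponds to 0.35 to 0.643 CPM (the count of a gene relative to the size of its library, scaled by TMM). No pair of libraries was identical. EGFhigh replicate 1 stood apart from replicates 3 and 4, with a chi-square per degree of freedom of 54.5 and 58.3 against 17.9 between the latter, and was the highest of its group in 165 of the 264 genes that were lower with EpEX. EGFhigh + EpEX replicate 2 was the lowest of its group in 165 of the same genes. Mitochondrial genes took 11.7% to 12.9% of the counts with EGFhigh and 8.46% to 11.2% with EGFhigh + EpEX, ranges that do not overlap, and their part in the results was not tested. The squamous identity markers KRT5, KRT14, KRT17, TP63, SOX2, EPCAM and CDH1 passed the filter on low counts and summed to 409 to 719 CPM with EGFhigh and 535 to 632 CPM with EGFhigh + EpEX. TP63 averaged 14.6 and 23.6 CPM and KRT5 only 2.33 and 2.25 CPM, so KRT5, which defines basal squamous cells, was nearly absent. Of 13 markers of fibroblasts, endothelium, leukocytes and red cells, 10 were left out as too low. Among these, PECAM1, CD3E and HBB had 0 CPM in the 6 libraries and VWF up to 6.78 CPM. The 3 that passed, COL1A1, COL1A2 and CDH5, summed to 18.2 to 29.7 CPM with EGFhigh and 25.5 to 30.4 CPM with EGFhigh + EpEX.

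Differentially expressed genes (DEGs) passed edgeR's test, fitted over all 43 Kyse30 libraries, at an adjusted p up to 0.05 with a log2FC above 0.5 or below -0.5. Of 15350 genes tested, 550 (3.58%) were DEGs between EGFhigh + EpEX and EGFhigh, of which 264 (1.72%) were lower and 286 (1.86%) higher with EpEX. The lower DEGs differed by a median of 2.35-fold and 37 of them by over 4-fold, and the higher DEGs by a median of 3.1-fold with 86 over 4-fold. The 2 directions also differed in level, with a median of 77.8 CPM over the 6 libraries for lower DEGs and 21.8 CPM for higher DEGs. The libraries of both groups did not overlap in 252 of the lower and 278 of the higher DEGs, against 19.9% of all genes tested (9.19% lower, 10.7% higher). For DEGs named below, a call lost in a fit without 1 library is given with that library, or with the number of the 6 such fits that kept it, and with the highest adjusted p over them. The number of DEGs was 336 without EGFhigh replicate 1, with 129 lower, and 187 without EGFhigh + EpEX replicate 2, with 70 lower and 117 higher. Without EGFhigh + EpEX replicate 1, 190 genes were higher. In all 6 fits that each left out 1 of these libraries, 131 of the 550 genes were DEGs, of which 53 were lower and 78 higher. Since these are bulk samples, fewer cells of a kind and less RNA per cell cannot be told apart.

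**Figure D1:**
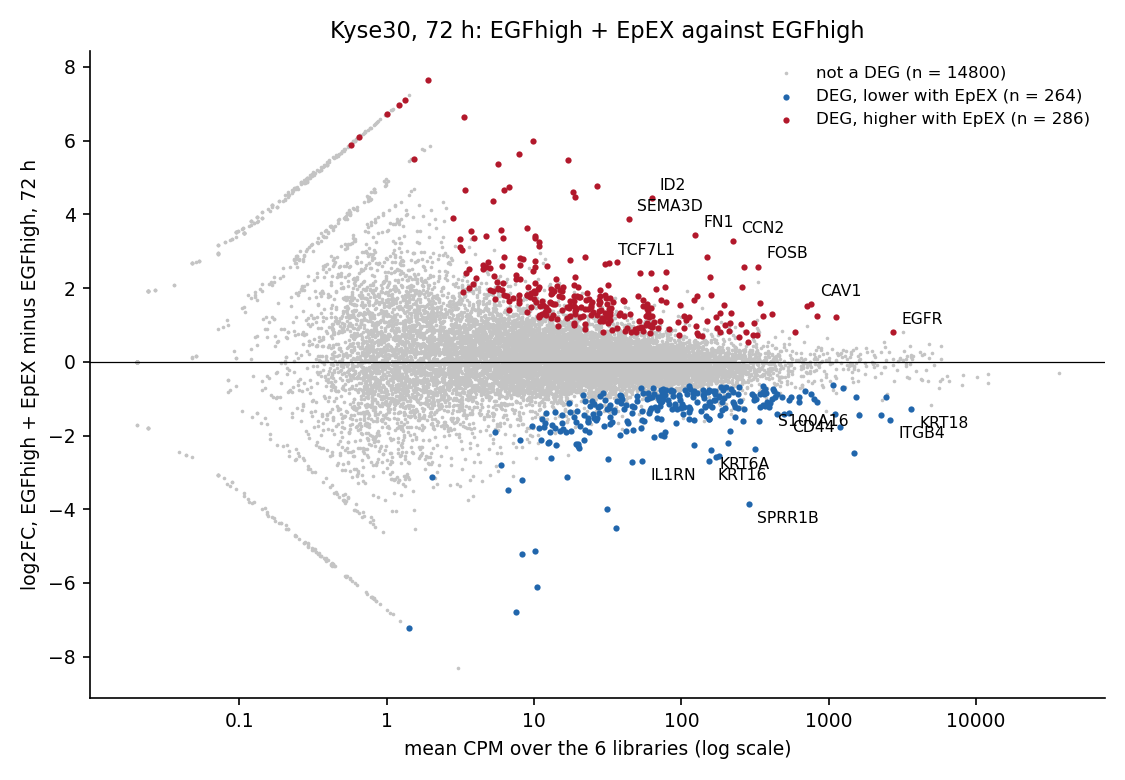
Log2FC of EGFhigh + EpEX minus EGFhigh at 72 h (vertical axis) against the mean CPM over the 6 libraries (horizontal axis, log scale) for 15350 genes, with 264 lower DEGs in blue and 286 higher DEGs in red. Genes in fan-shaped lines at the left are those with counts in few libraries, whose log2FC depends on the small count added by the fit, and ITGB4 and EGFR are DEGs of opposite direction at high levels.

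Of 19 tested genes of the cornified envelope, which squamous cells build as they differentiate, 4 were lower DEGs with EpEX and none was higher. The median log2FC was -0.77 against 0.03 over all genes tested, and 6 of the 19 lay above 0. These 4 genes, SPRR1B, SPRR2A, SPRR2E and SPRR3, encode small proline-rich precursors that transglutaminases crosslink into the envelope, and lie within the epidermal differentiation complex of chromosome 1 (GRCh38). SPRR1B (chr1:153031202-153032900) stood at 668, 446 and 495 CPM in EGFhigh replicates 1, 3 and 4 and at 36.8, 10.7 and 63.0 CPM in EGFhigh + EpEX replicates 1, 2 and 3, the order used throughout. The groups did not overlap, and SPRR1B was 14.5-fold lower with EpEX (log2FC -3.86, SE 0.45, adjusted p = 6.92e-07). SPRR2A (chr1:153056113-153057537) stood at 132, 39.2 and 37.4 CPM with EGFhigh and at 4.58, 3.22 and 1.27 CPM with EGFhigh + EpEX, a log2FC of -4.51 (SE 0.81, adjusted p = 0.000577), with EGFhigh replicate 1 well above the other two. SPRR2E reached 12.3, 28.7 and 21.3 CPM with EGFhigh and at most 0.429 CPM, a count of 3, with EGFhigh + EpEX (adjusted p = 0.0164). SPRR3 ranged from 152 to 534 CPM with EGFhigh and from 52.7 to 128 CPM with EGFhigh + EpEX (log2FC -1.89, SE 0.49, adjusted p = 0.0179). SPRR1B and SPRR2A were DEGs whichever of the 6 libraries was left out, while SPRR3 was lost without EGFhigh replicate 1 or EGFhigh + EpEX replicates 2 or 3 (adjusted p up to 0.167) and SPRR2E without EGFhigh replicate 3 or any EGFhigh + EpEX library (up to 0.0866). The list then had 2 lower DEGs without EGFhigh + EpEX replicates 2 or 3. SPRR2 genes are near-identical copies and reads matching several places were not counted, so their levels are uncertain.

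The promoters of 3 of these genes hold matches to the AP-1 site, the motif read by dimers of FOS and JUN proteins, and are shown because FOS and FOSB were higher with EpEX (below), while FOSL1, of the same family, was lower in its mean without passing the test. The sequences are the 250 bases up to the RefSeq start of each gene (GRCh38.p14), 5' to 3' on the strand of the gene, with matches to TGANTCA on either strand in capitals. SPRR1B (chr1:153030953-153031202, plus strand) holds 2 matches, and SPRR2A (chr1:153057513-153057762, minus strand) and SPRR3 (chr1:153001499-153001748, plus strand) hold 1 each.
SPRR1B: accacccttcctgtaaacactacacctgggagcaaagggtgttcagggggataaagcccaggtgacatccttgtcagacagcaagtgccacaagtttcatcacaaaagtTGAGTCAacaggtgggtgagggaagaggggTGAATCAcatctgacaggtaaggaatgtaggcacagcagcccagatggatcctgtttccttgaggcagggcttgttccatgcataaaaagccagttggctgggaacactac
SPRR2A: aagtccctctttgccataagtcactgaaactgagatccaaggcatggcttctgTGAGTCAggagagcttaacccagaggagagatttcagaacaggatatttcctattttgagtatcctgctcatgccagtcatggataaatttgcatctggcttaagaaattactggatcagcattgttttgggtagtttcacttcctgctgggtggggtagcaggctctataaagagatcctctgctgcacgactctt
SPRR3: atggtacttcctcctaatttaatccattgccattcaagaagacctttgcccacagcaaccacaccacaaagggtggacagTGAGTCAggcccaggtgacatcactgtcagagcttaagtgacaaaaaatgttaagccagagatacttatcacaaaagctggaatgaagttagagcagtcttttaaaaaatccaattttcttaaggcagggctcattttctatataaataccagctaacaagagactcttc
Such a match stood in 6.57% of 35116 promoter windows of this length, and a match is a description of letters and not of binding. Among other named genes, the lower DEGs LAMA3 and ECM1 held 2 matches each and S100P, KRT8 and CD44 held 0. The higher DEGs ANKRD1 and GJA1 held 1 each. A link between the motif and the levels of these genes was not tested. Windows were found for 76.9% of lower DEGs, 80.4% of higher DEGs and 70.6% of all genes tested, and with under 80% of 2 of these sets covered a comparison of their motif shares is void and is not given.

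Keratins, the intermediate filaments of epithelia, had 4 lower DEGs and none higher among 17 tested genes. Their median log2FC was -0.70, but 8 of the 17 lay above 0 and the median was 0.02 without EGFhigh replicate 4. KRT16, a keratin of stressed and hyperproliferative squamous epithelium, fell from 407, 179 and 214 CPM to 42.2, 16.7 and 63.6 CPM (log2FC -2.7, SE 0.52, adjusted p = 0.00121). KRT6A, its usual partner, was listed at 346, 116 and 334 CPM against 29.8, 28.1 and 93.7 CPM (log2FC -2.39, SE 0.65, adjusted p = 0.0271), with EGFhigh + EpEX replicate 3 closest to the EGFhigh range. KRT8 and KRT18, the pair of simple epithelium, were higher in level and had one EGFhigh library far above the others. KRT8 stood at 5658, 2360 and 1870 CPM with EGFhigh and at 1615, 807 and 1185 CPM with EGFhigh + EpEX (log2FC -1.46, SE 0.29, adjusted p = 0.00156). Without EGFhigh replicate 1 the adjusted p was 0.102 for KRT8 and 0.0961 for KRT18, KRT16 remained a DEG, and 1 keratin was lower while 2, KRT4 and KRT7, were higher. KRT6A lost its call without EGFhigh replicates 1 or 4 or without EGFhigh + EpEX replicates 1 or 2, with an adjusted p of up to 0.194. KRT17 (log2FC -1.48, SE 0.53, adjusted p = 0.112) and KRT5 (log2FC 0.06, SE 0.71) did not pass the test. Keratins of this kind share long stretches of sequence, and KRT6A and KRT16 counts are therefore uncertain.

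Of 12 tested S100 genes, which encode small calcium-binding proteins, 5 were lower DEGs and none was higher, with a median log2FC of -1.08. S100A16 fell from 590, 524 and 544 CPM to 236, 182 and 291 CPM (log2FC -1.22, SE 0.18, adjusted p = 2.75e-05), and the EGFhigh libraries lay close together. S100A13, which takes part in release of growth factors without a signal peptide, fell from 178 to 243 CPM to 64.0 to 103 CPM (log2FC -1.23, SE 0.27, adjusted p = 0.00378). S100P stood at 369, 374 and 134 CPM with EGFhigh and at 78.3, 51.3 and 17.0 CPM with EGFhigh + EpEX (adjusted p = 0.00939). S100A4 and S100A11, of which S100A4 is linked to cell motility, were lower by 2.44-fold and 1.93-fold, and S100A11 was lost without EGFhigh replicate 4 or EGFhigh + EpEX replicates 1 or 2 (adjusted p up to 0.205). S100A16 and S100A13 were DEGs in every fit that left out 1 of the 6 libraries. The count of lower S100 genes was 3 without EGFhigh + EpEX replicate 1 and 2 without EGFhigh + EpEX replicate 2, where S100A4 was lost without EGFhigh replicate 3 or EGFhigh + EpEX replicates 1 or 2 (adjusted p up to 0.229) and S100P without EGFhigh + EpEX replicates 2 or 3 (up to 0.0778). The kallikreins, secreted proteases of squamous epithelium, had a median log2FC of -1.22 over 4 tested genes with no DEG, and the 21 squamous lineage factors had no DEG and a median of -0.11. IL1RN, the secreted antagonist of interleukin-1, was the only DEG of 12 tested inflammatory cytokine genes, at 144, 82.9 and 54.4 CPM with EGFhigh and 27.3, 7.72 and 8.11 CPM with EGFhigh + EpEX (log2FC -2.69, SE 0.59, adjusted p = 0.00422, and 0.0611 without EGFhigh + EpEX replicate 2).

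Of 9 tested genes of hemidesmosomes and laminin-332, which attach epithelium to the basement membrane, 3 were lower DEGs and none was higher. Their median log2FC was -0.57, and -0.35 with 2 DEGs without EGFhigh + EpEX replicate 2. ITGB4, the integrin chain that binds laminin-332, stood at 3123, 4357 and 4272 CPM with EGFhigh and at 1148, 747 and 2059 CPM with EGFhigh + EpEX (log2FC -1.57, SE 0.3, adjusted p = 0.00121), and the groups did not overlap. Its partner ITGA6 differed by a log2FC of only -0.002 (SE 0.17), at 731 to 972 CPM and 811 to 933 CPM. LAMA3 was also among the lower DEGs (log2FC -1.52, SE 0.37, adjusted p = 0.0107), and LAMB3 was at 279 to 354 CPM and 82.0 to 171 CPM without passing the test (log2FC -1.32, SE 0.4, adjusted p = 0.0504). ITGB4 was a DEG whichever library was left out, while LAMA3 was lost without EGFhigh replicate 4 or EGFhigh + EpEX replicate 2 (adjusted p up to 0.13) and LAMB3 passed without EGFhigh + EpEX replicate 3.

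Among other integrins, ITGA2 and ITGA3, which bind collagen and laminin, were the lower DEGs of 10 tested genes. ITGA3 stood at 222, 206 and 243 CPM with EGFhigh and at 108, 83.9 and 137 CPM with EGFhigh + EpEX (log2FC -1.03, SE 0.23, adjusted p = 0.00571). ITGA2 was 2.14-fold lower (log2FC -1.1, SE 0.24, adjusted p = 0.00454). Both were above the threshold without EGFhigh + EpEX replicate 2, at adjusted p = 0.0597 for ITGA2 and 0.0926 for ITGA3. CD44, the receptor of hyaluronan, fell from 615, 701 and 841 CPM to 274, 224 and 316 CPM (log2FC -1.41, SE 0.25, adjusted p = 0.000566) and kept its call in all 6 fits without 1 library. CDH3, P-cadherin, fell from 496 to 623 CPM to 239 to 292 CPM (log2FC -1.01, SE 0.19, adjusted p = 0.000802) and kept it as well. Of 31 tested tetraspanins and membrane or cytoskeletal proteins of motility, 5 were lower (ACTN1, ANXA2, FSCN1, RAC2 and RALB) and 2 higher (CAV1 and CAV2), but 0 were lower without EGFhigh + EpEX replicate 2 and 2 without EGFhigh replicate 1. Of the 6 fits without 1 library, ACTN1 and RALB were called in 4 each (adjusted p up to 0.129 and 0.0703), ANXA2 in 3 (up to 0.461), RAC2 in 2 (up to 0.281), CAV2 in 2 (up to 0.0767) and CAV1 in all. FSCN1, which bundles actin in filopodia, was 1.83-fold lower (log2FC -0.87, SE 0.24, adjusted p = 0.0298) and was lost without EGFhigh replicates 1 or 4 or EGFhigh + EpEX replicates 1 or 2 (up to 0.239). SERPINE2, an inhibitor of thrombin and urokinase, stood at 211, 124 and 268 CPM against 40.5, 17.2 and 68.2 CPM (log2FC -2.25, SE 0.5, adjusted p = 0.00464, and 0.0761 without EGFhigh + EpEX replicate 2).

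**Figure D2:**
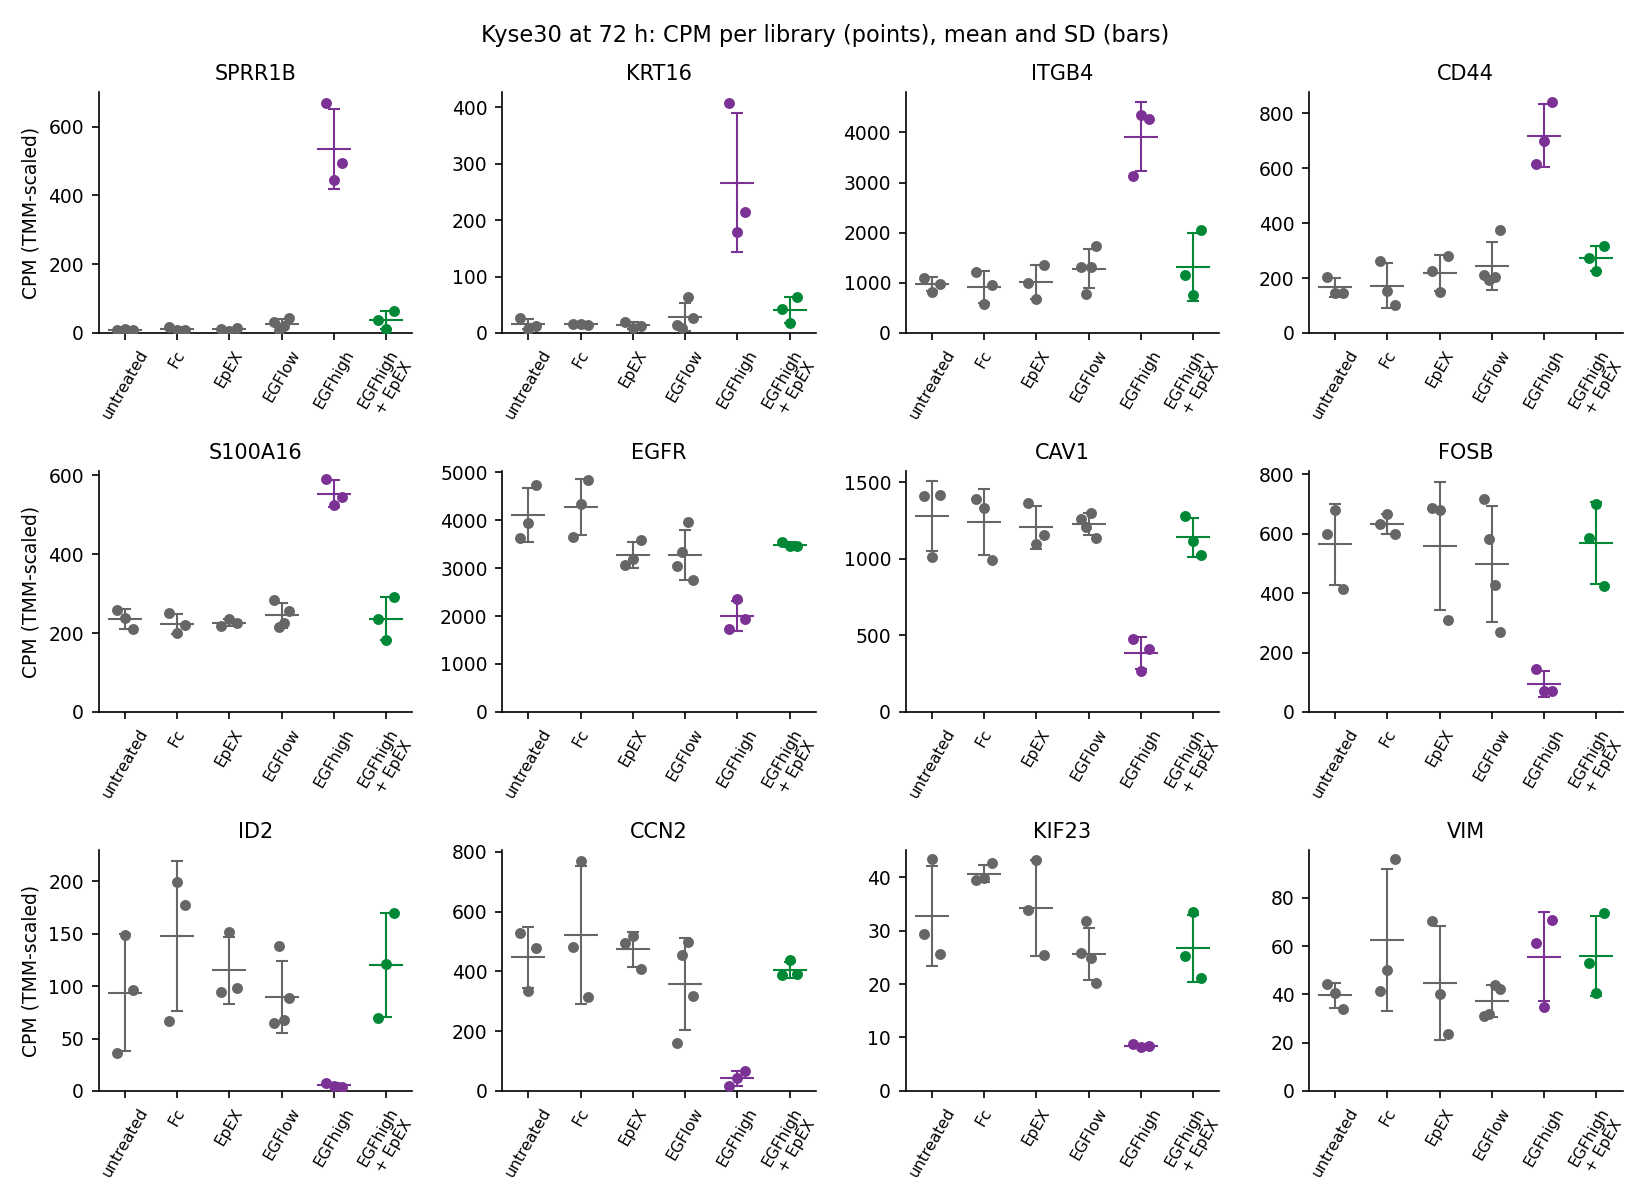
CPM of 12 genes in each Kyse30 library at 72 h (points), with the mean and SD of each group (bars) and a separate linear axis from 0 for each gene. EGFhigh libraries (purple) stand apart from all other groups in SPRR1B, CAV1, S100A16, FOSB and KIF23, and VIM shows no such separation. On these axes EGFhigh + EpEX libraries (green) lie near the other groups. SPRR1B was still at 10.7 to 63.0 CPM in them, against 8.56 to 10.5 CPM in untreated libraries.

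Most classical EMT genes tested did not pass the test. Over all genes tested, 1.72% were lower DEGs and 1.86% were higher DEGs. Of 15 tested EMT factors and cadherins, CDH3 was lower and FN1 higher, and the rest did not pass the test. VIM, the mesenchymal intermediate filament, stood at 61.1, 35.0 and 70.7 CPM with EGFhigh and at 53.1, 40.8 and 73.6 CPM with EGFhigh + EpEX (log2FC 0.01, SE 0.45). CDH1, E-cadherin, had a log2FC of 0.12 (SE 0.44), SNAI2 of 0.73 (SE 0.51) and CDH2 of 0.51 (SE 0.64), and ZEB1 was at most 1.96 CPM in any of the 6 libraries. FN1, which encodes the matrix protein fibronectin, stood at 25.9, 13.9 and 22.6 CPM with EGFhigh and at 101, 186 and 394 CPM with EGFhigh + EpEX. It was 10.9-fold higher with EpEX (log2FC 3.44, SE 0.65, adjusted p = 0.000826), and kept its call without any single library. The EMT hallmark list had 11 lower and 10 higher DEGs of 152 tested genes and a median log2FC of 0.07. The signature of partial EMT had 9 lower and 6 higher of 90 and a median of -0.18, with LAMA3 and SERPINE2 among the lower and CAV1, GJA1 and IGFBP3 among the higher genes, of which IGFBP3 was called in 2 of the 6 fits without 1 library (adjusted p up to 0.11). Without EGFhigh + EpEX replicate 2 the hallmark list had 5 lower and 5 higher DEGs and the partial EMT list 2 and 3, and without EGFhigh replicate 1 they had 7 and 9 and 5 and 3. MMP1 (9.33, 4.64 and 38.7 CPM against 5.01, 1.5 and 4.77 CPM) and TIMP1 (log2FC -0.69, SE 0.24) did not pass, and TIMP3, an inhibitor of metalloproteinases bound to matrix, was 4.88-fold higher (adjusted p = 0.0067, and 0.0563 without EGFhigh replicate 1).

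The study's own EGFR-mediated EMT list holds genes called in both cell lines with EGFhigh and not with the other treatments. Libraries of EGFhigh and of EGFhigh + EpEX from this study therefore both entered its choice. Its direction here was largely set in advance, and its counts are not independent evidence about EpEX. Of its 80 genes that rise with EGF, 38 were lower DEGs with EpEX and none was higher, and of its 91 genes that fall with EGF, 33 were higher DEGs and none was lower. Their median log2FC values were -0.97 and 1.04. Without single libraries these counts ranged from 15 to 35 and from 17 to 35, both lowest without EGFhigh + EpEX replicate 2.

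EGFR itself was higher with EpEX. It stood at 1732, 2347 and 1931 CPM with EGFhigh and at 3548, 3465 and 3458 CPM with EGFhigh + EpEX, a 1.74-fold difference (log2FC 0.8, SE 0.18, adjusted p = 0.00671). The groups did not overlap, the EGFhigh + EpEX libraries lay close together, and the untreated mean was 4100 CPM over 3 libraries. Without EGFhigh replicate 1 the adjusted p was 0.0611. Among its ligands, TGFA was lower (96.1, 48.5 and 56.2 CPM against 36.5, 18.4 and 21.2 CPM, adjusted p = 0.0428), and lost its call without EGFhigh replicates 1 or 4 or EGFhigh + EpEX replicates 2 or 3 (adjusted p up to 0.256). AREG was at 776, 394 and 877 CPM against 247, 250 and 268 CPM and did not pass (log2FC -1.42, SE 0.45, adjusted p = 0.0681), HBEGF had a log2FC of -0.77 (SE 0.64) and EREG of 0.18 (SE 0.36). EPCAM, the source of EpEX in the cells, had a log2FC of -0.42 (SE 0.23, adjusted p = 0.386).

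Targets of the ERK pathway did not move one way. Of 25 tested genes of ERK feedback and early response, DUSP4 and IER3 were lower and DUSP1, EGR1 and EGR2 higher, with a median log2FC of 0.06, and without EGFhigh + EpEX replicate 2 the list had 0 DEGs. Of the 6 fits without 1 library, DUSP4 was called in 2 (adjusted p up to 0.162), IER3 in 3 (up to 0.145) and EGR2 in 1 (up to 0.205). DUSP4 and DUSP1 are phosphatases of MAP kinases. DUSP6, which acts on ERK, was at 105, 144 and 169 CPM against 235, 282 and 196 CPM without passing the test (log2FC 0.77, SE 0.32, adjusted p = 0.193), and ETV4 (log2FC -0.55, SE 0.27) did not pass. Of 12 tested AP-1 factors, FOS, FOSB and ATF3 were higher and none was lower, while the median of the list was -0.17. FOSB stood at 146, 71.0 and 68.9 CPM with EGFhigh and at 586, 699 and 423 CPM with EGFhigh + EpEX (log2FC 2.58, SE 0.43, adjusted p = 0.000231). FOS stood at 46.4, 91.3 and 94.8 CPM against 482, 516 and 369 CPM (log2FC 2.56, SE 0.64, adjusted p = 0.0147). FOSL1, an AP-1 factor of migrating cells, went the other way in its means without passing the test (log2FC -1.21, SE 0.57, adjusted p = 0.276). FOSB was a DEG whichever library was left out, and FOS was lost without EGFhigh replicate 1 (adjusted p = 0.0941) or EGFhigh + EpEX replicate 2. ATF3 and DUSP1 were lost in 4 of the 6 fits, both without EGFhigh replicate 1 or EGFhigh + EpEX replicates 1 or 2, and EGR1 in all but that without EGFhigh replicate 4 (adjusted p up to 0.172, 0.221 and 0.167).

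The ID genes, which encode inhibitors of bHLH transcription factors and are targets of BMP signals, were higher with EpEX. ID1, ID2 and ID3 were the DEGs of 22 tested genes of the TGF-beta pathway, with a median log2FC of 0.49 over the list. ID2 stood at 7.47, 5.17 and 3.71 CPM with EGFhigh and at 69.7, 121 and 169 CPM with EGFhigh + EpEX, 21.8-fold higher (log2FC 4.45, SE 0.63, adjusted p = 2.14e-05). ID4 rose from at most 2.22 CPM to between 21.0 and 48.7 CPM (log2FC 4.47, SE 0.58, adjusted p = 4.4e-06). ID1 stood at 113, 66.2 and 121 CPM against 292, 499 and 448 CPM (log2FC 2.04, SE 0.42, adjusted p = 0.00225). No single library was needed for the calls of ID1, ID2 and ID4, and ID3 had an adjusted p of 0.0123 and was lost without EGFhigh replicates 1 or 4 or EGFhigh + EpEX replicate 2 (up to 0.102). Of 19 tested targets of YAP/TAZ and TEAD, ANKRD1 and CCN2 were higher and NT5E lower, of which NT5E was called in 0 of the 6 fits without 1 library (adjusted p up to 0.196). CCN2, a secreted matricellular protein, stood at 16.3, 42.3 and 68.1 CPM with EGFhigh and at 387, 437 and 392 CPM with EGFhigh + EpEX (log2FC 3.27, SE 0.6, adjusted p = 0.00065). CAV1, the scaffold of caveolae, rose from 473, 270 and 414 CPM to 1279, 1114 and 1026 CPM (log2FC 1.56, SE 0.22, adjusted p = 2.14e-05). The axon guidance ligand SEMA3D had the smallest adjusted p of all genes tested, 8.92e-09, at 6.3, 6.6 and 4.0 CPM against 49.7, 108 and 90.5 CPM.

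Of 43 tested S phase genes 9 were higher DEGs with EpEX and none was lower, with a median log2FC of 0.76, and of 54 G2/M genes 14 were higher and none was lower, with a median of 0.84. Without EGFhigh replicate 1 these counts were 12 and 20, and without EGFhigh + EpEX replicate 2 they were 2 and 4, while in each fit without 1 of the 6 libraries the medians stayed between 0.59 and 1.2. CDCA7, a MYC-responsive gene of S phase, stood at 8.05, 1.96 and 8.85 CPM with EGFhigh and at 32.1, 35.0 and 28.2 CPM with EGFhigh + EpEX (log2FC 2.31, SE 0.42, adjusted p = 0.000607). KIF23, a kinesin of the central spindle, stood at 8.86, 8.2 and 8.42 CPM against 25.3, 33.5 and 21.2 CPM (log2FC 1.64, SE 0.28, adjusted p = 0.000262). DLGAP5, which stabilises the spindle, stood at 3.62, 0.713 and 8.71 CPM against 15.5, 17.2 and 15.4 CPM (log2FC 1.85, SE 0.42, adjusted p = 0.0057). CDCA7, WDR76, KIF23, DLGAP5 and PIMREG were DEGs whichever of the 6 libraries was left out, while UHRF1 and RAD51AP1 were lost without EGFhigh + EpEX replicate 2 (adjusted p = 0.0774 and 0.0504). The proliferation marker MKI67 (86.9, 17.7 and 39.0 CPM against 74.1, 127 and 88.6 CPM, adjusted p = 0.178), CDC20 (adjusted p = 0.179) and the CDK inhibitor CDKN1A (log2FC -1.18, SE 0.47, adjusted p = 0.172) did not pass. MKI67 passed without EGFhigh replicate 1, the EGFhigh library in which it was highest.

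Promoters of KIF23 and DLGAP5 are shown because genes of G2/M often carry a CHR element, the motif TTTGAA read by the MuvB complexes that time this phase. The windows are the 250 bases up to the RefSeq start (GRCh38.p14), 5' to 3' on the strand of the gene, with matches to TTTGAA on either strand in capitals. DLGAP5 (chr14:55191586-55191835, minus strand) holds 2 matches and KIF23 (chr15:69414099-69414348, plus strand) holds 1, and 13.3% of all windows hold at least 1.
DLGAP5: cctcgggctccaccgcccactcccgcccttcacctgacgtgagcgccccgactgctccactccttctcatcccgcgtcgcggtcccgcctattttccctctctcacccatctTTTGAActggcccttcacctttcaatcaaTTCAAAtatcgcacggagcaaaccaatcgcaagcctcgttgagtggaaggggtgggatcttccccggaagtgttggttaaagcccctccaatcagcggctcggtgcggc
KIF23: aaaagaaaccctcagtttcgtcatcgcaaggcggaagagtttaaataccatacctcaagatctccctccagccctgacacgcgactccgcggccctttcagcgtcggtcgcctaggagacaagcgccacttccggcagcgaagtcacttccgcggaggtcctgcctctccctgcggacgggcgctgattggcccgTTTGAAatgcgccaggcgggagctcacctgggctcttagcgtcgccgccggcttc
As above, a match describes letters only. Matches were not particular to these genes. NEK2, another higher DEG of the G2/M list, held 0, while VIT and ID3, higher DEGs outside the cell cycle lists, held 2 each.

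**Figure D3:**
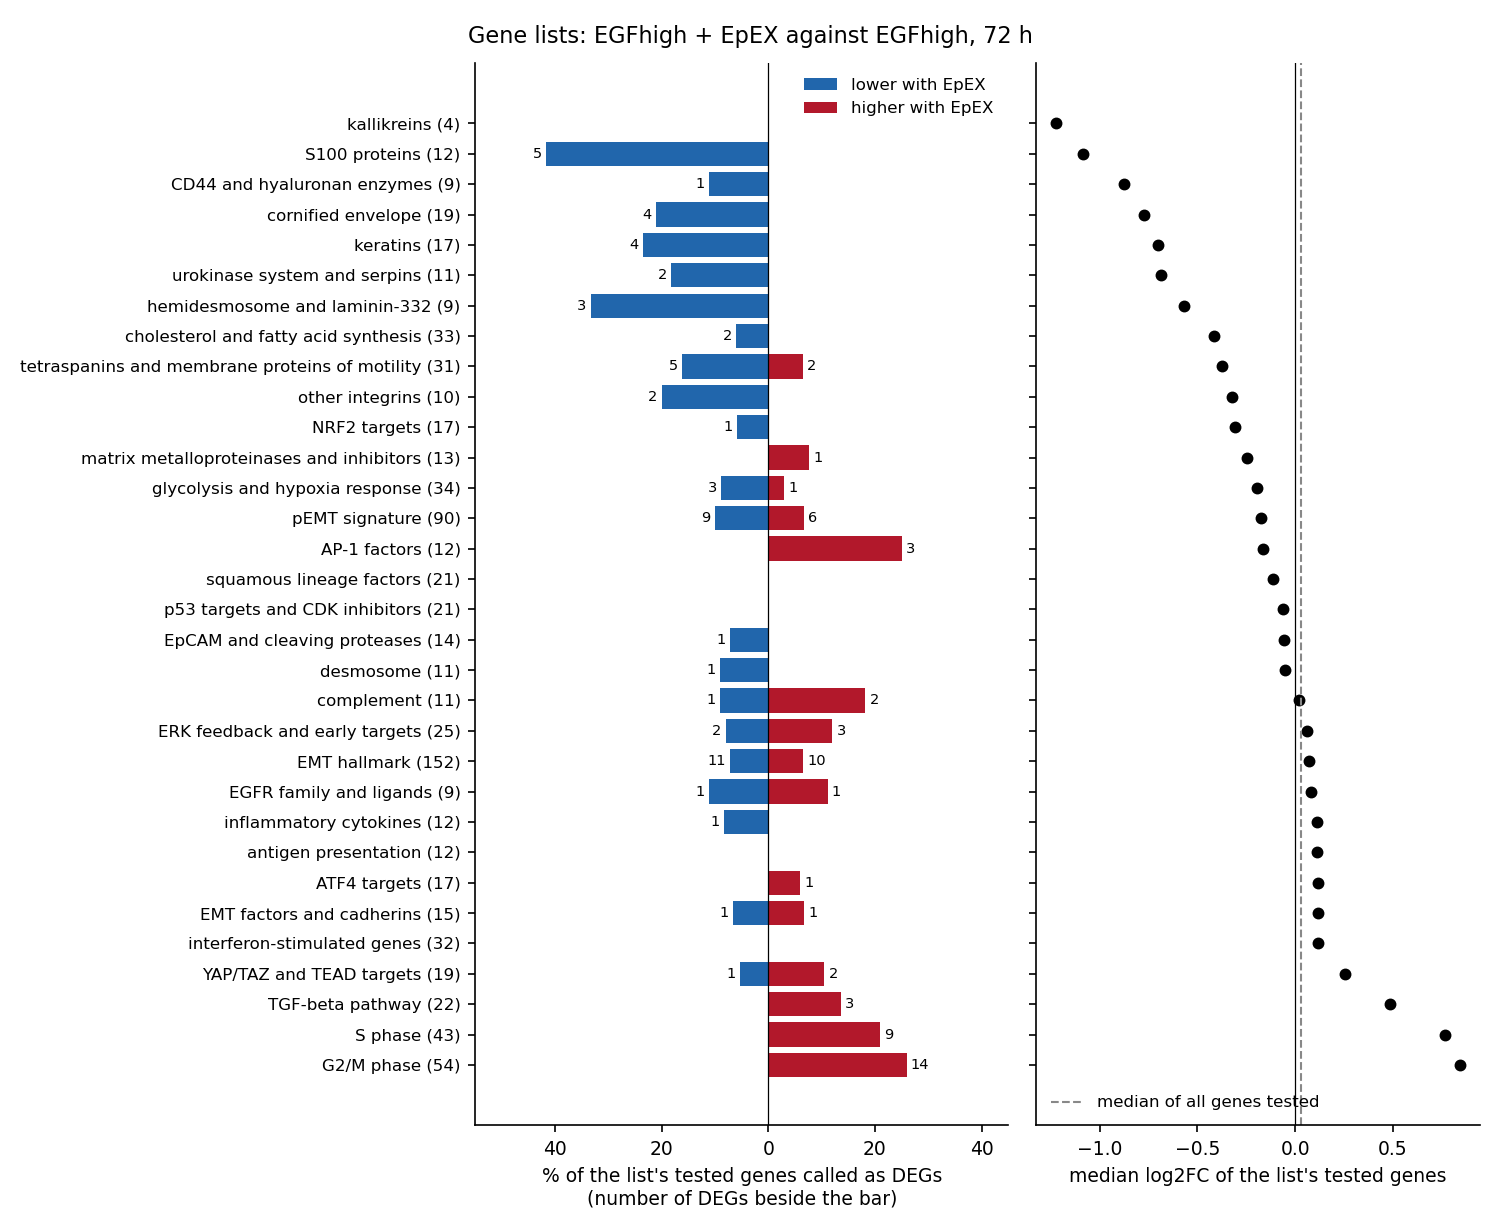
Left, share of the tested genes of each list (number in brackets) that were lower (blue) or higher (red) DEGs with EpEX, with the number of DEGs beside the bar; right, median log2FC of the list, with the dashed line at the median of all genes tested. S100 proteins, cornified envelope and keratins have lower DEGs only, and S phase and G2/M phase have higher DEGs only.

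Metabolic genes had DEGs in both directions, while over all genes tested 1.72% were lower and 1.86% higher. In lists of this size, 1 or 2 DEGs are given as counts and not as a result about the list. Of 34 tested genes of glycolysis and the hypoxia response, NDRG1, PFKP and PKM were lower and the glucose transporter SLC2A3 was higher, with 0 lower DEGs without EGFhigh replicate 1 or EGFhigh + EpEX replicates 1 or 2. NDRG1 and PFKP were called in 2 of the 6 fits each (adjusted p up to 0.229 and 0.275). PKM, which makes pyruvate, stood at 924, 533 and 719 CPM with EGFhigh and at 329, 286 and 437 CPM with EGFhigh + EpEX (log2FC -1.05, SE 0.27, adjusted p = 0.0165), and was lost without EGFhigh replicate 1 or EGFhigh + EpEX replicates 1 or 2 (up to 0.148). SLC2A3 was below 1 CPM in every EGFhigh library and at 5.29, 9.44 and 24.3 CPM with EGFhigh + EpEX (adjusted p = 0.00255). Of 33 tested genes of cholesterol and fatty acid synthesis, ELOVL6 and FASN were lower, FASN at 2023, 808 and 598 CPM against 673, 440 and 492 CPM, and both were lost without EGFhigh replicate 1 or EGFhigh + EpEX replicates 2 or 3, with an adjusted p of up to 0.639 for FASN and 0.12 for ELOVL6. PHGDH, the first enzyme of serine synthesis, was the higher DEG of 17 tested ATF4 targets (log2FC 1.07, SE 0.26, adjusted p = 0.00925, and 0.102 without EGFhigh replicate 3). NRF2 targets had 1 lower DEG of 17, OSGIN1, at no more than 4.28 CPM (adjusted p = 0.0362), and was lost without EGFhigh replicates 1 or 3 or EGFhigh + EpEX replicates 1 or 2 (up to 0.172). The 32 interferon-stimulated genes, 12 genes of antigen presentation and 21 p53 targets and CDK inhibitors tested had no DEG, with medians of 0.12, 0.11 and -0.06. DDIT4, FADD and NCEH1 were lower in their means by log2FC -1.41 (SE 0.5), -0.48 (SE 0.17) and -0.87 (SE 0.34) and did not pass the test.

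Some genes were present in one group and at or near zero in the other. The phosphodiesterase PDE2A was at 26.0, 5.35 and 17.1 CPM with EGFhigh and at 1.15, 0 and 0 CPM with EGFhigh + EpEX (adjusted p = 0.00154), and MYH16 at 19.01, 9.27 and 31.3 CPM against 0.572, 0.429 and 0.636 CPM (adjusted p = 0.00134). In the other direction, the carboxypeptidase CPVL was at 0, 0 and 0.856 CPM with EGFhigh and at 12.02, 23.8 and 22.6 CPM with EGFhigh + EpEX (adjusted p = 1.43e-05), and the complement component C5 at 0, 0.535 and 0.286 CPM against 6.15, 18.9 and 8.11 CPM (adjusted p = 6.59e-05). All 4 were DEGs whichever library was left out, and no fold is given because the lower group lay near a count of 3. FAM83A, linked to signals of EGFR, fell from 102, 18.9 and 54.7 CPM to 5.58, 3.86 and 1.59 CPM (log2FC -3.99, SE 0.72, adjusted p = 0.000585).

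The levels with EGFhigh + EpEX were next set beside those of the other 72 h groups. In each library, the median over the 264 lower DEGs was 1.1 to 1.48 above the untreated mean (log2 scale) with EGFhigh and -0.17 to 0.14 with EGFhigh + EpEX, and over the 286 higher DEGs it was -1.73 to -1.57 with EGFhigh and -0.15 to 0.12 with EGFhigh + EpEX. The untreated libraries themselves spanned -0.08 to 0.15 and -0.09 to 0.06. Over the lower DEGs, EGFhigh + EpEX replicates 1 and 3 lay inside that span and replicate 2 (-0.17) below it. Over the higher DEGs, EGFhigh + EpEX replicates 1, 2 and 3 (-0.15, 0.12 and -0.11) all lay outside it. EGFlow libraries had -0.05 to 0.33 over the lower and -0.36 to 0.04 over the higher DEGs. These genes were chosen on the EGFhigh and EGFhigh + EpEX libraries, and the position of those is a description.

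**Figure D4:**
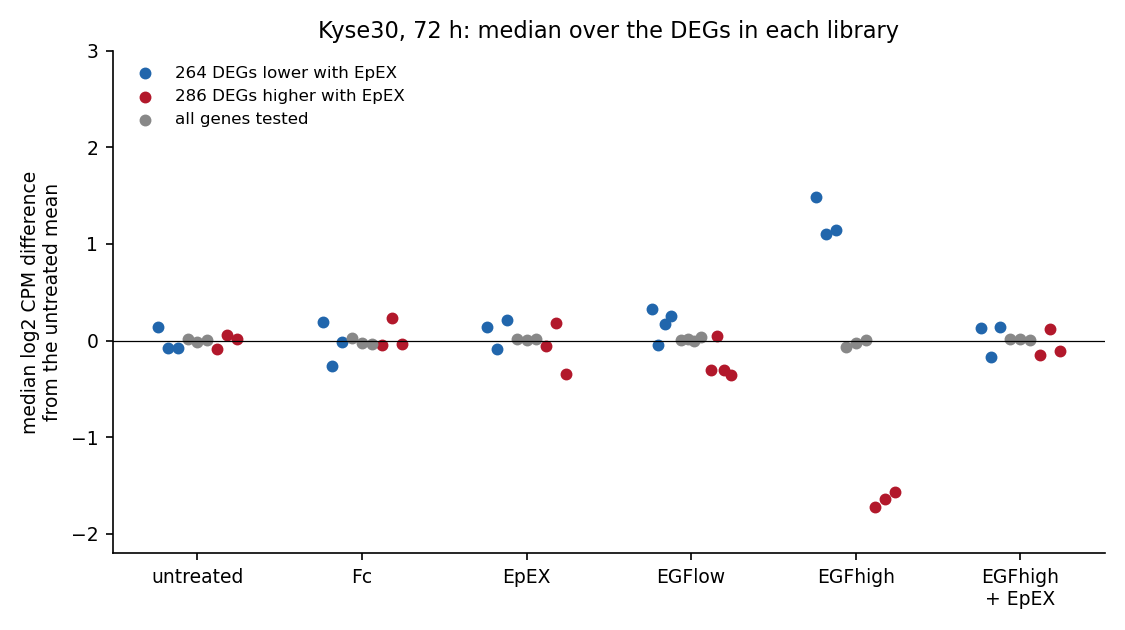
Median over the DEGs of the log2 CPM difference from the untreated mean (vertical axis) in each Kyse30 library at 72 h, for the 264 lower DEGs (blue), the 286 higher DEGs (red) and all genes tested (grey). EGFhigh libraries lie at 1.1 to 1.48 for lower and -1.73 to -1.57 for higher DEGs, and libraries of the other 5 groups lie near 0.

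No gene was a DEG between EGFhigh + EpEX and EGFlow in edgeR (0.0%), where 325 genes (2.12%) had p under 0.05 before adjustment and 0 DEGs in DESeq2, nor between EGFhigh + EpEX and Fc (0.0%), with 601 genes (3.92%) and 0 DEGs in DESeq2. Without Fc replicate 1, 1 gene, HDAC9, differed from Fc. The median SE of these comparisons was 0.41 and 0.43 on the log2 scale, and the absence of DEGs does not show that the groups were alike. Against EGFlow, the log2FC was 0.49 (SE 0.39) for SPRR1B, 0.04 (SE 0.28) for ITGB4, 0.09 (SE 0.17) for EGFR and 0.42 (SE 0.5) for ID2. Against Fc, SPRR1B had a log2FC of 1.6 (SE 0.44), KRT6A of 2.47 (SE 0.7), CD44 of 0.65 (SE 0.25) and FN1 of -1.53 (SE 0.59), each in the direction of EGFhigh without passing the test across all genes. ITGA2 leaned the other way (-0.4, SE 0.24). As a set, the 264 lower DEGs had a median of only 0.05 against Fc, with 114 below 0. The 286 higher DEGs had a median of -0.12, with 107 above 0.

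The comparison of EGFhigh with untreated cells shares the EGFhigh libraries with that of EGFhigh + EpEX with EGFhigh, and its values are given side by side only. It had 951 DEGs (6.2%), of which 485 (3.16%) were lower and 466 (3.04%) higher with EGFhigh, and 475 without untreated replicate 2 or 589 without untreated replicate 3. Over the 264 genes lower with EpEX, the median log2FC was -1.23 for adding EpEX to EGFhigh and 1.27 for EGFhigh against untreated cells, and over the 286 higher genes it was 1.63 and -1.66. SPRR1B had -3.86 and 5.81, ITGB4 -1.57 and 2.02, EGFR 0.8 and -1.03, and CCN2 3.27 and -3.41.

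Adding EpEX to cells without EGF gave values near 0 for these genes, in a comparison that shares no library with that on EGFhigh. EpEX against untreated cells had 1 DEG (0.00651%), the metallothionein MT1X, with 396 genes at an unadjusted p under 0.05 and 1 DEG in DESeq2. The medians were 0.08 over the 264 lower and -0.07 over the 286 higher DEGs, against -0.001 over all genes tested. SPRR1B had a log2FC of 0.17 (SE 0.46), ITGB4 of 0.06 (SE 0.3), ID2 of 0.3 (SE 0.53) and EGFR of -0.32 (SE 0.18). The effect of EpEX differed between cells with and without EGFhigh in 145 genes (0.945%), as tested by an interaction, of which 75 (0.489%) had a lower and 70 (0.456%) a higher log2FC with EGFhigh. SPRR1B differed by -4.02, ITGB4 by -1.63, FN1 by 3.75, CCN2 by 3.18 and EGFR by 1.12. With Fc in place of untreated cells the number was 201 (1.31%), with 102 (0.664%) lower and 99 (0.645%) higher. It was 34 without EpEX replicate 4, in which NDRG1, DDIT4 and MT1X were far above the other 2 EpEX libraries, 41 without EGFhigh + EpEX replicate 2, 49 and 71 without untreated replicates 2 and 3, 86 without EGFhigh replicate 1 and 87 without EpEX replicate 1. EpEX against Fc, in which both groups carry Fc, had no DEG in edgeR (0.0%), where 554 genes had p under 0.05 before adjustment and 2 DEGs in DESeq2, and Fc against untreated cells had none (0.0%), with 439 genes and 0 in DESeq2.

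**Figure D5:**
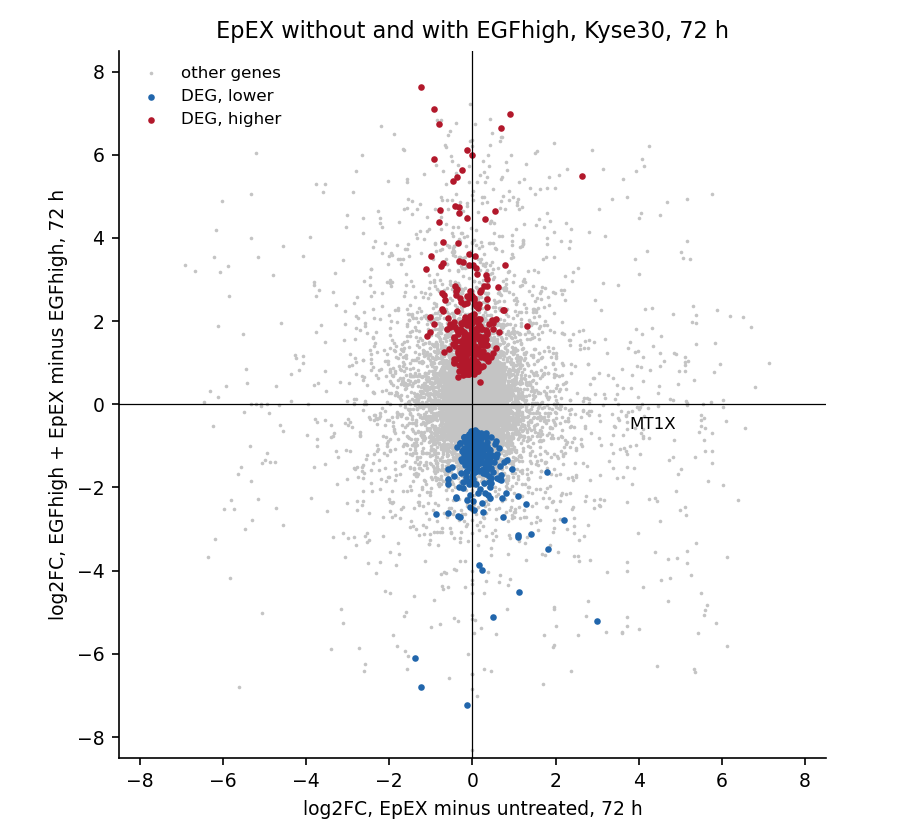
Log2FC of EpEX added to EGFhigh (vertical axis) against log2FC of EpEX added to untreated cells (horizontal axis) at 72 h, for all genes tested, with DEGs of the former in blue and red. The DEGs spread along the vertical axis with medians of 0.08 (lower) and -0.07 (higher) on the horizontal axis, and MT1X, the DEG of the latter, is labelled.

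At 6 h the addition of EpEX to EGFhigh gave no DEG in edgeR (0.0%), where 577 genes (3.76%) had p under 0.05 before adjustment and 0 DEGs in DESeq2, over 4 libraries in each group. The 264 and 286 DEGs of 72 h had medians of 0.0 and 0.02 at 6 h. SPRR1B had a log2FC of 0.07 (SE 0.35), ITGB4 of 0.12 (SE 0.26), ID2 of 0.14 (SE 0.54) and EGFR of -0.14 (SE 0.16) at 6 h. The change at 72 h differed from that at 6 h in 142 genes (0.925%), with 62 (0.404%) lower and 80 (0.521%) higher at 72 h, among them SPRR1B (-3.92), KRT16 (-2.98), ITGB4 (-1.69), ID2 (4.3), CCN2 (3.44) and CDCA7 (2.64). This number was 65 without EGFhigh replicate 1 of 6 h and 34 without EGFhigh + EpEX replicate 2 of 72 h.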

How the data were processed

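RNA of 84 libraries was sequenced with a QuantSeq 3' FWD kit. The authors deposited whole-number read counts per gene for each library, which were not normalized and not pooled. The submitters' processing notes name STAR, HTSeq, GRCh38 and hg38, and their versions, the strand setting, the annotation and any use of molecular identifiers are not given in the sources used here. Reads matching several places had not been counted. PCR duplicates may remain, so limits from counts cover counting error only.

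The 5 rows per file that name no gene were left out. Symbols and positions came from GENCODE release 29 by Ensembl identifier, which matched 58275 of 58395 rows. Groups followed the labels, which give cell line, treatment and time. Low genes were removed by filterByExpr with the groups as given (count of 10, total of 15), and the rest entered 1 fit of all 43 Kyse30 libraries with a mean per group in edgeR 4.0.16 (TMM normalization, quasi-likelihood F test, R 4.3.3), with Benjamini-Hochberg adjustment over 15350 genes. All adjusted p-values are from this test unless DESeq2 1.42.0 is named. The SE of a log2FC was its size divided by the square root of F, and CPM values are scaled by TMM. The test was checked on simulated counts.

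The genes named were the 12 highest and 12 lowest log2FC among DEGs without overlap and with a mean of at least 5 CPM, genes of EGFR signaling, EMT and the cell cycle, up to 4 DEGs of each of 36 lists, and DEGs of comparisons with at most 5. Further genes of a list with few DEGs and genes found with a library left out were named after their values were seen. A few genes are not reported here. Comparison, genes and lists were chosen with earlier results of these data known, and lists are described by counts and medians with no set test. Promoters came from RefSeq windows (GRCh38.p14), searched on both strands.

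The alternatives were DESeq2, RLE size factors, no filter, only the groups compared, a mean of 5 CPM or more, 72 h libraries only, a replicate block and each library left out in turn. Leaving libraries out was extended to the list counts after the data had been seen.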

Additional observations from a re-analysis of the deposited data

Results flagged for a closer look

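By its total, 1 library drew attention within its group. Among the 4 EGFlow libraries at 72 h, replicate 3 had a total of 3703085 counts, far below the other 3, by Dixon's test. For a single measure this test flags about 1 in 20 groups by chance. Its statistic was also computed for other library measures and for the named genes in this group, so more flags by chance can arise. In some named genes EGFlow replicate 4 stood apart instead, as in CD44 (375 against 192 to 211 CPM), KRT6A (126 against 6.57 to 20.5) and PLXDC2 (1.1 against 17.2 to 18.5). C15orf48 set replicate 3 apart (20.9 against 3.3 to 4.0 CPM). Over the lower and higher DEGs, the medians of replicate 4 (0.25 and -0.36) were near those of replicate 1 (0.33 and -0.3). EGFlow libraries enter the comparison of EGFhigh + EpEX with EGFlow, which had 0 DEGs without EGFlow replicate 4 as well.

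The other values in this section are genes, named in the report, whose response to EpEX differed between settings in a test of the difference itself. The first setting was EGFhigh against no EGF at 72 h, in which 145 genes differed (log2FC of EpEX on EGFhigh minus log2FC of EpEX on untreated cells). Among genes of differentiation and attachment the difference was -5.64 for SPRR2A, -4.02 for SPRR1B, -3.68 for KRT6A, -1.16 for S100A16, -1.63 for ITGB4, -1.8 for CD44, -2.68 for SERPINE2 and -1.38 for CD59. Among other genes that were lower it was -4.22 for FAM83A and -2.36 for IER3. Among metabolic genes it was -3.42 for NDRG1, -2.8 for DDIT4, -1.68 for PKM, -1.49 for PFKP, -2.39 for ELOVL6 and -4.37 for MT1X, of which NDRG1, DDIT4 and MT1X were high in EpEX replicate 4. In the higher direction it was 1.12 for EGFR, 2.59 for FOSB, 4.14 for ID2, 4.59 for ID4, 3.18 for CCN2, 4.93 for ANKRD1, 1.65 for CAV1, 3.75 for FN1, 3.02 for TIMP3, 4.23 for SEMA3D, and 3.4 for TCF7L1. Cell cycle genes had 2.17 (CDCA7), 2.3 (WDR76), 2.4 (DLGAP5) and 1.57 (KIF23). For genes with a group below a mean of 1 CPM the size of the fitted difference depends on the count added by the fit and is not given. Of these, PDE2A (adjusted p = 0.00538 in edgeR's test), MYH16 (0.0419) and OSGIN1 (0.0431) had a lower and CPVL (0.00167), C5 (0.00224) and SLC2A3 (0.0306) a higher log2FC with EGFhigh.

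The second setting was 72 h against 6 h of EpEX on EGFhigh, in which 142 genes differed (log2FC at 72 h minus log2FC at 6 h). Lower at 72 h were SPRR2A (-4.44), SPRR1B (-3.92), SPRR3 (-2.42), KRT16 (-2.98), IL1RN (-3.19), ITGB4 (-1.69), ITGA3 (-1.34), S100A13 (-1.47) and S100A16 (-1.31). Higher at 72 h were ANKRD1 (5.18), ID4 (4.08), ID2 (4.3), ID1 (2.72), SEMA3D (3.5), CCN2 (3.44), TCF7L1 (2.47), CAV1 (1.61), EGFR (0.94), CDCA7 (2.64), UHRF1 (2.29) and KIF23 (2.03). With a group below a mean of 1 CPM and so no size given, PDE2A (adjusted p = 0.0188 in edgeR's test) and MYH16 (0.0271) were lower and CPVL (0.000643) and C5 (0.00638) higher at 72 h.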

How the results depend on the processing

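All 550 DEGs between EGFhigh + EpEX and EGFhigh kept their direction in every alternative in which they were tested. That was largely set in advance, as they were chosen for a difference in the same libraries. The number of DEGs depended on the fit. DESeq2 gave 846 DEGs (412 lower, 434 higher), 259 for the difference with and without EGFhigh and 305 for the difference between 72 h and 6 h. Without a filter on low counts there were 437 higher DEGs, 1 DEG against EGFlow (CYP1B1), 10 against Fc, 343 for the difference with and without EGFhigh and 400 for that between times. With only the groups compared in the fit there were 194 DEGs (103 lower, 91 higher), 75 and 65 for the differences and 502 between EGFhigh and untreated cells. With 72 h libraries only, 47 genes differed with and without EGFhigh. Of the 113 genes named, 89 were DEGs between EGFhigh + EpEX and EGFhigh. Of these, 29 lost their call with only the groups compared, 15 with 72 h libraries only and 0 with DESeq2. Without EGFhigh + EpEX replicate 2, 43 lost it. RLE size factors gave 554 DEGs and a mean of at least 5 CPM gave 631. The cause of these changes was not tested.

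Leaving out each library in turn gave 187 to 475 DEGs (70 to 230 lower, 117 to 247 higher), 0 to 0 against EGFlow, 0 to 1 against Fc, 34 to 180 with and without EGFhigh, 34 to 185 between times and 475 to 778 between EGFhigh and untreated cells. A fit with the replicate number as a replicate block gave 604 DEGs (296 lower, 308 higher), 0 against EGFlow and Fc, 204 and 212 for the differences and 977 between EGFhigh and untreated cells. Deviations of libraries with the same number had a mean correlation of 0.0633 over 217 pairs, and -0.0216 over 635 pairs with different numbers. Untreated 6 h libraries had 6.96%, 12.3% and 12.9% mitochondrial counts in replicates 1, 3 and 4, and EGFhigh 72 h libraries 11.8%, 12.9% and 11.7%. Whether the numbers mark a batch is not given by the labels and was not tested. EGFhigh + EpEX replicate 2 has no EGFhigh library of its number at 72 h, so the comparison could not be fully paired. Groups of 3 libraries, a depth of 4563103 to 9499780 counts and unclear independence of replicates limit all calls.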

Other observations

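Beyond the groups described above, several genes stood apart between EGFhigh and EGFhigh + EpEX at 72 h. CYP1A1, a monooxygenase induced by the aryl hydrocarbon receptor, was at 0.816, 22.1 and 21.98 CPM in EGFhigh replicates 1, 3 and 4 and at 0, 0.215 and 0.159 CPM in EGFhigh + EpEX replicates 1, 2 and 3 (adjusted p = 0.0207), so EGFhigh replicate 1 sat with the EGFhigh + EpEX libraries, and its call was lost without any 1 library other than EGFhigh replicate 1 (adjusted p up to 0.0986). CALB2, the calcium buffer calretinin, was 5.83-fold lower with EpEX (476, 259 and 192 CPM against 85.6, 30.2 and 42.6 CPM, adjusted p = 0.00295). TCF7L1, a transcription factor of the WNT pathway, rose from 3.85, 10.7 and 11.9 CPM to 45.1, 57.7 and 65.4 CPM (log2FC 2.68, SE 0.46, adjusted p = 0.000313), and the gap junction protein GJA1 from 0.816, 1.78 and 2.86 CPM to 8.58, 19.3 and 27.4 CPM (adjusted p = 0.00288). Of 11 tested complement genes, the membrane inhibitor CD59 was lower (log2FC -1.14, SE 0.2, adjusted p = 0.000548), and C5 was among the higher DEGs.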
